A study of Mus musculus with 5 samples.

Results

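The interferon regulatory factors are a family of transcription factors that share a DNA-binding domain and recognise repeated GAAA motifs. The members examined were Irf1, Irf2, Irf3, Irf4, Irf5, Irf7, Irf8 and Irf9, and every probe set annotated to exactly 1 of these symbols was taken. A probe set is a group of short probes against 1 transcript region. The rule gave 14 probe sets for the 8 genes, out of 45037 probe sets for mouse sequences, and 0 further probe sets named a member together with another symbol. Gene expression had been measured on Affymetrix arrays in 2 cell populations of C57BL/6 females aged 6 to 8 weeks, each sample on an array of its own. Brain dendritic cells (DCs) were represented by 2 arrays of Lin-CD45hiCD11c+ cells from mice that had been given 1000000 B16-Flt3L tumour cells subcutaneously 12 days earlier. B16 is a melanoma line, and Flt3 ligand drives the growth of dendritic cells. The bone marrow monocyte group had 3 arrays of SSCloCD11bhi CD115+ cells, for which the labels state no treatment. Whether cells were pooled from several animals is not stated, so p-values measure the spread between these samples only, which may be technical.

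Members of this family divide their work. IRF3 and IRF7 are activated by kinases downstream of nucleic acid sensors and switch on type I interferon genes. IRF9 is part of ISGF3, the complex that carries the interferon signal to the nucleus, and IRF1 and IRF2 act as activator and antagonist at interferon-responsive promoters. IRF5 drives inflammatory cytokine genes. IRF4 and IRF8 bind mainly with partners of the ETS and BATF families. IRF8 is required for type 1 conventional and plasmacytoid dendritic cells and for monocytes, and IRF4 for many type 2 conventional dendritic cells and for plasma cells.

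The promoters of the 2 members that differed most are shown for the motifs they hold. Promoter windows hold 250 bases before and 50 after an annotated start, come from RefSeq on build GRCm38.p6, and were available for all 8 genes, with 11 windows in all. Irf8 lies on chromosome 8 and its upstream window is chr8:120736108-120736407 on the plus strand. Irf7 lies on chromosome 7 with the window chr7:141266375-141266674 on the minus strand. Sequences run 5′ to 3′ along the gene, and capitals mark matches to the gamma-activated site TTCNNNGAA, an element of interferon gamma-responsive promoters, or to the TATA box core TATAAA.
Irf8 promoter: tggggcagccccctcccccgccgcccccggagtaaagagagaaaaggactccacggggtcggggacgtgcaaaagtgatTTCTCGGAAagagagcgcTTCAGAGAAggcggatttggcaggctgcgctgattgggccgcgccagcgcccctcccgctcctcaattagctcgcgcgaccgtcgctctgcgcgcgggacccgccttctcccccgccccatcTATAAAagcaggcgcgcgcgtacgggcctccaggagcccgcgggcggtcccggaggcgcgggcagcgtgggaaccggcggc
Irf7 promoter: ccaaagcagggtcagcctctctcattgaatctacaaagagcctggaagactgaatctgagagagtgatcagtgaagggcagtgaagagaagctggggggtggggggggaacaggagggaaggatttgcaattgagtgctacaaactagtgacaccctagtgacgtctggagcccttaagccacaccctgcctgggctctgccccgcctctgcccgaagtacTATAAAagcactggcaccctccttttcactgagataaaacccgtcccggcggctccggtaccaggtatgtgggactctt
Irf8 had 2 gamma-activated site matches in this window, starting 171 and 153 bases before the start, and a TATA match 31 bases before it. The Irf7 window held a TATA match 29 bases before the start and no letters of the gamma-activated site. Irf1, on chromosome 11 in the window chr11:53769764-53770063 on the plus strand, had 1 gamma-activated site match, 90 bases before the start. Irf2, on chromosome 8 in the window chr8:46739495-46739794 on the plus strand, also had 1, at 224 bases, beside both motifs that IRF proteins bind. One of these is the core of the interferon-stimulated response element, GAAA, any 2 bases and GAAA again, at 241 bases. The other is the ETS-IRF composite element, GGAA, any 2 bases and GAAA, at 247 bases, and these 2 matches overlap by 4 bases. The matched stretches, in capitals with their flanks in lower case, show the 3 kinds of match.
Irf1 gamma-activated site: ctgatTTCCCCGAAatgat
Irf2 response element core: gaagtGAAAATGAAAttgac
Irf2 composite element: tggGGAAGTGAAAatgaa
Irf2 gamma-activated site: gacttTTCCGAGAAatgat
Both strands were searched. Over all 32851 promoter windows in the table, 8.3% held the gamma-activated site, 3.44% the response element core, 2.72% the composite element and 13.6% the TATA core. Among the 11 member windows, 3 held the gamma-activated site, 1 the response element core, 1 the composite element and 3 the TATA core. A match is a string of letters and was not tested as a binding site.

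The values are log2 values made with RMA, each relative to a baseline of its own probe set. Such values allow arrays to be compared within a probe set but carry no absolute level, so the order of the 8 genes by abundance could not be read. Differences were tested with limma over all 45037 probe sets. A probe set is called below where its Benjamini-Hochberg adjusted p is under 0.05. With 2 arrays against 3, the smallest two-sided p of an exact permutation is 0.1, so no single value was tested that way. Of the 14 member probe sets, 3 were higher in brain DCs, 1 was lower and 10 were not called. The 3 higher probe sets read Irf7, Irf8 and Irf5, and the lower one read Irf3. Over all probe sets 12.2% were called higher and 15.5% lower, 27.7% in all, so the 28.6% called among the members was near the background. The groups did not overlap in 9 of the 14 members, with 7 above and 2 below. Over all probe sets that share was 55.4%, made up of 30.6% above and 24.8% below. The median absolute difference was 0.33 among the members and 0.33 over all probe sets. In sorted populations read in bulk, fewer cells of a type and less RNA per cell cannot be told apart.

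**Figure D1:**
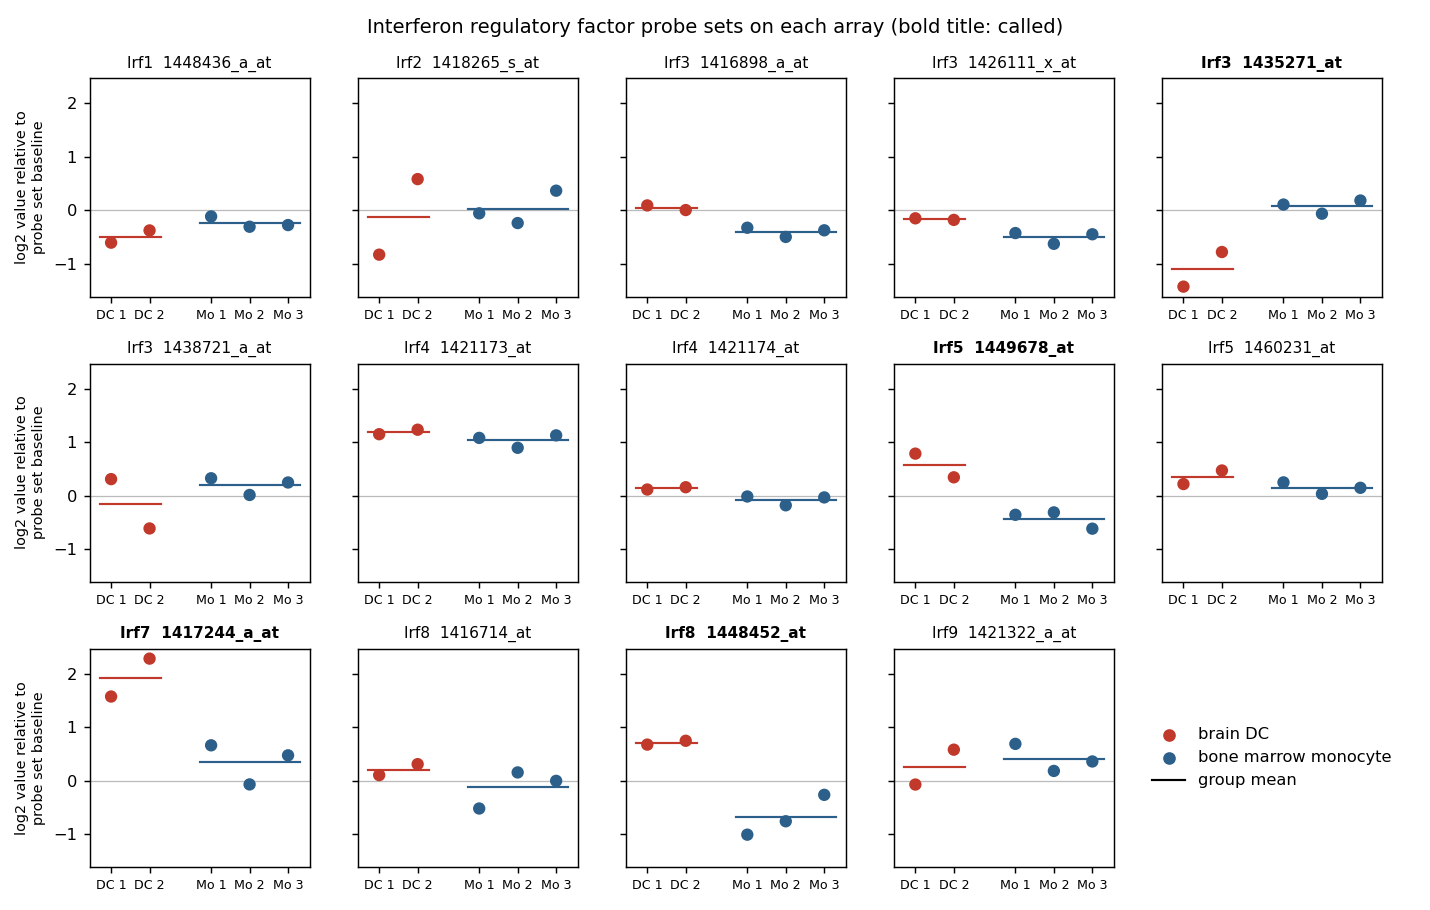
Log2 value relative to the probe set's own baseline (y axis) on each of the 5 arrays (x axis: DC, brain DC; Mo, bone marrow monocyte) for the 14 probe sets of the family. Points are arrays and lines are group means. Irf7 and the Irf8 probe set 1448452_at sit higher on both brain DC arrays, whereas the Irf3 probe set 1435271_at sits lower. Heights cannot be compared between panels.

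Irf7, the interferon-inducible member that amplifies type I interferon production, had the largest difference of the family. Its probe set, 1417244_a_at, stood at 1.57 and 2.28 in brain DCs, against 0.66, -0.07 and 0.47 in monocytes. Both brain DC arrays were above all 3 monocyte arrays. The difference was 1.57 ± 0.28 on the log2 scale (SE, limma adjusted p = 0.0055), or 2.97-fold, with a 95% interval from 0.91 to 2.24. Of all probe sets, 92.6% had a smaller absolute difference. The arrays of each group were also far apart: the gap between the brain DC arrays was 0.71, against a median of 0.23 over all probe sets, and the range over monocytes was 0.73, against a median of 0.32. Irf7 kept its call in all 10 alternatives tried, with adjusted p from 0.0035 to 0.0274.

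Irf8, the lineage factor shared by type 1 dendritic cells and monocytes, was read by 2 probe sets that gave different sizes. Probe set 1448452_at stood at 0.68 and 0.75 in brain DCs, against -1.01, -0.76 and -0.26 in monocytes. The groups did not overlap, and the brain DC arrays differed from each other by only 0.07. The difference was 1.39 ± 0.23 (SE, limma adjusted p = 0.00376), or 2.62-fold. Probe set 1416714_at stood at 0.11 and 0.31 in brain DCs, against -0.52, 0.16 and -0.00 in monocytes. Here monocyte 2 lay between the brain DC arrays, and the difference of 0.33 ± 0.22 was not called (limma adjusted p = 0.325; 95% interval from -0.19 to 0.85). The platform annotation names the same source sequence for both probe sets. Taking the mean of both, Irf8 was 1.81-fold higher (0.86 ± 0.20, limma adjusted p = 0.013 over 18193 genes), a call lost without brain DC replicate 2 (0.79, adjusted p = 0.0637). Over its 11 alternatives the adjusted p of that mean ran from 0.00292 to 0.0637.

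Irf5, the activator of inflammatory cytokine genes, also had 2 probe sets. Probe set 1449678_at stood at 0.78 and 0.34 in brain DCs, against -0.36, -0.31 and -0.62 in monocytes. Every brain DC array was above every monocyte array, and the difference was 0.99 ± 0.19 (SE, limma adjusted p = 0.00757), or 1.99-fold. Probe set 1460231_at stood at 0.22 and 0.47 in brain DCs, against 0.25, 0.03 and 0.15 in monocytes. The groups overlapped there, and its difference of 0.20 ± 0.16 was not called (limma adjusted p = 0.409). The mean of both was 0.60 ± 0.13 higher (limma adjusted p = 0.00921), and it was called in all 11 alternatives.

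Irf3, the constitutively made factor that TBK1 phosphorylates after virus sensing, was the only member whose probe sets pointed in opposite directions. Probe set 1435271_at stood at -1.42 and -0.78 in brain DCs, against 0.11, -0.06 and 0.19 in monocytes. Both brain DC arrays were below every monocyte array, and the difference was -1.18 ± 0.22 (SE, limma adjusted p = 0.00603), or 2.26-fold lower. The annotation gives no source accession for this probe set. Probe set 1416898_a_at stood at 0.09 and 0.01 in brain DCs, against -0.32, -0.49 and -0.37 in monocytes. Probe set 1426111_x_at stood at -0.15 and -0.18 in brain DCs, against -0.42, -0.62 and -0.44 in monocytes. In both of these the groups did not overlap and brain DCs were above, but the differences of 0.45 ± 0.15 (limma adjusted p = 0.0627) and 0.34 ± 0.15 (limma adjusted p = 0.147) were not called. The suffix x marks a probe set with some probes that can match other sequences. The last probe set, 1438721_a_at, stood at 0.31 and -0.61 in brain DCs, against 0.32, 0.01 and 0.24 in monocytes. It was at -0.35 ± 0.27 (limma adjusted p = 0.393), and without brain DC replicate 1 it was called at -0.81 (adjusted p = 0.034, in a range from 0.034 to 0.742 over 10 alternatives). The mean of all 4 probe sets was -0.19 ± 0.13 and not called (limma adjusted p = 0.315), so a single value for Irf3 hides these opposite readings.

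**Figure D2:**
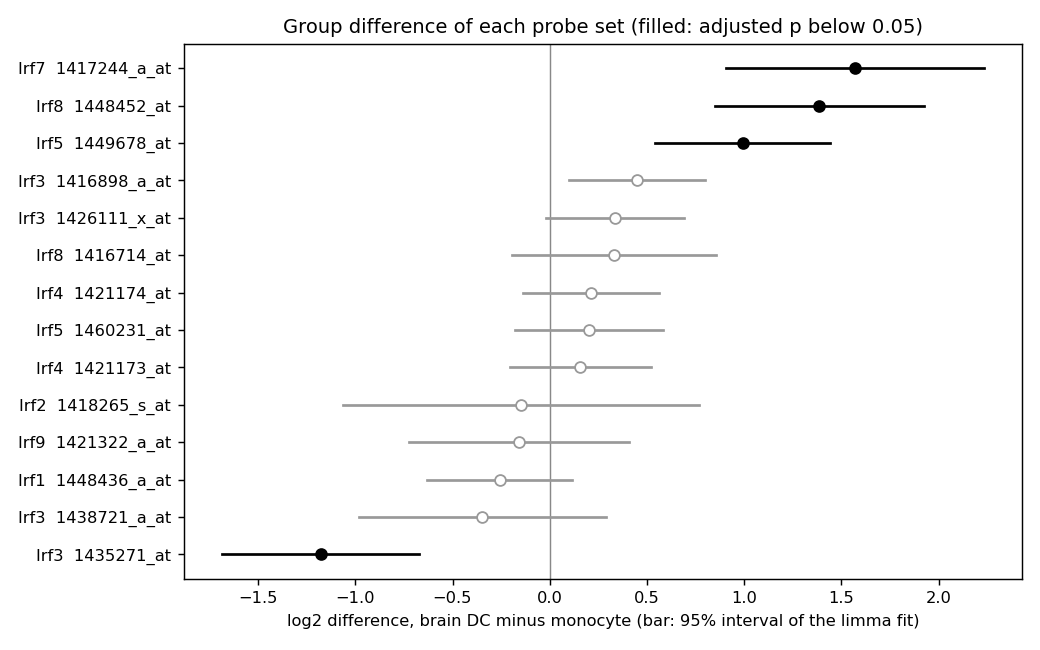
Log2 difference, brain DC minus monocyte (x axis), of the 14 probe sets (y axis), with the 95% interval of the limma fit as a bar. Filled points are called. The 4 called probe sets run from Irf7 at 1.57 and Irf8 at 1.39 to Irf3 at -1.18, and the intervals of 9 of the other 10 include 0.

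Irf4, Irf1, Irf2 and Irf9 had no called probe set. Irf4, a factor of type 2 dendritic cells and plasma cells, stood at 1.15 and 1.23 in brain DCs, against 1.08, 0.89 and 1.13 in monocytes, for probe set 1421173_at. Probe set 1421174_at stood at 0.11 and 0.16 in brain DCs, against -0.02, -0.18 and -0.03 in monocytes. In both, the brain DC arrays were above, by 0.16 ± 0.16 and 0.21 ± 0.15 (limma adjusted p = 0.504 and 0.339). The 95% intervals reached up to 0.52 and 0.56. With quantile normalisation 1421173_at stood at 0.42 (adjusted p = 0.103, in a range from 0.103 to 0.766 over 10 alternatives), which was not called either.

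Irf1, the interferon gamma-induced activator, stood at -0.60 and -0.37 in brain DCs, against -0.11, -0.30 and -0.27 in monocytes. The brain DC arrays were below without overlap, but the difference of -0.26 ± 0.16 was not called (limma adjusted p = 0.28). Irf2, the antagonist of IRF1, stood at -0.83 and 0.59 in brain DCs, against -0.05, -0.24 and 0.37 in monocytes. The 2 brain DC arrays lay on either side of all monocyte arrays, and the gap of 1.41 between them was larger than in 99.2% of probe sets. Its difference of -0.15 ± 0.39 (limma adjusted p = 0.821) turned to 0.56 without brain DC replicate 1 and to -0.85 without brain DC replicate 2, so no direction could be given. The probe-set call for Irf2 was made in 0 of 10 alternatives. Fitted at the level of genes, Irf2 was called without brain DC replicate 2 (adjusted p = 0.0454, in a range from 0.0454 to 0.973). Irf9, the DNA-binding subunit of ISGF3, stood at -0.07 and 0.58 in brain DCs, against 0.69, 0.18 and 0.36 in monocytes. The groups overlapped, and the difference was -0.16 ± 0.24 (limma adjusted p = 0.682). It was at 0.17 without brain DC replicate 1.

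Whether the probe sets of one gene disagreed was tested on their within-array difference. The fit covered 30372 pairs of probe sets of the same gene, of which 23% were called. Of the 9 pairs within this family, 3 were called. Since each probe set has a baseline of its own, the sign of such a difference on one array carries no meaning, and only its change between the groups was read. For Irf8, the relative value of 1448452_at minus that of 1416714_at was 0.57 and 0.44 in brain DC arrays, against -0.49, -0.91 and -0.26 in monocyte arrays. The change between groups, 1.06 ± 0.25, was called (limma adjusted p = 0.0243) but lost its call when either brain DC array (adjusted p = 0.0879 without replicate 1 and 0.0586 without replicate 2) or either of monocytes 1 and 2 (adjusted p = 0.0814 and 0.0573) was left out. Over its 9 alternatives the adjusted p ran from 0.0165 to 0.0879. For Irf3, 1416898_a_at minus 1435271_at was 1.52 and 0.78 in brain DC arrays, against -0.43, -0.43 and -0.56 in monocyte arrays. The groups differed by 1.63 ± 0.26 (limma adjusted p = 0.00659). The pair of 1426111_x_at and 1435271_at differed by 1.51 ± 0.25 (limma adjusted p = 0.00728), and both Irf3 pairs were called in all 9 alternatives. The other 4 Irf3 pairs, the Irf5 pair (0.79 ± 0.27, limma adjusted p = 0.0799) and the Irf4 pair (0.06 ± 0.19, limma adjusted p = 0.868) were not called. In the Irf5 pair the call was gained without brain DC replicate 2 (1.14, adjusted p = 0.0372, in a range up to 0.336). Without brain DC replicate 1 the number of called pairs was 4, and it ran from 2 to 4 over the arrays left out.

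Control probe sets that read the start and the end of one transcript also differed between the groups. For Gapdh, the 5′ probe set minus the 3′ probe set was 0.34 and 0.22 in brain DCs, against -2.78, -2.86 and -2.28 in monocytes. For Actb it was 0.16 and 0.31 in brain DCs, against -3.99, -3.98 and -1.60 in monocytes. For Tfrc it was 0.52 and 0.87 in brain DCs, against 0.66, 0.63 and 0.50 in monocytes, and the groups overlapped. The Gapdh and Actb signals from the 5′ end were thus lower relative to the 3′ end in monocyte arrays. The positions of the member probe sets along their transcripts were not used here. The part of this pattern in the disagreement or in the calls of these probe sets was not tested. The 24 probe sets of poly-A spike-in RNA were all higher in brain DC arrays, by a median of 2.59, and the 18 hybridisation controls were higher by a median of 1.04.

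**Figure D3:**
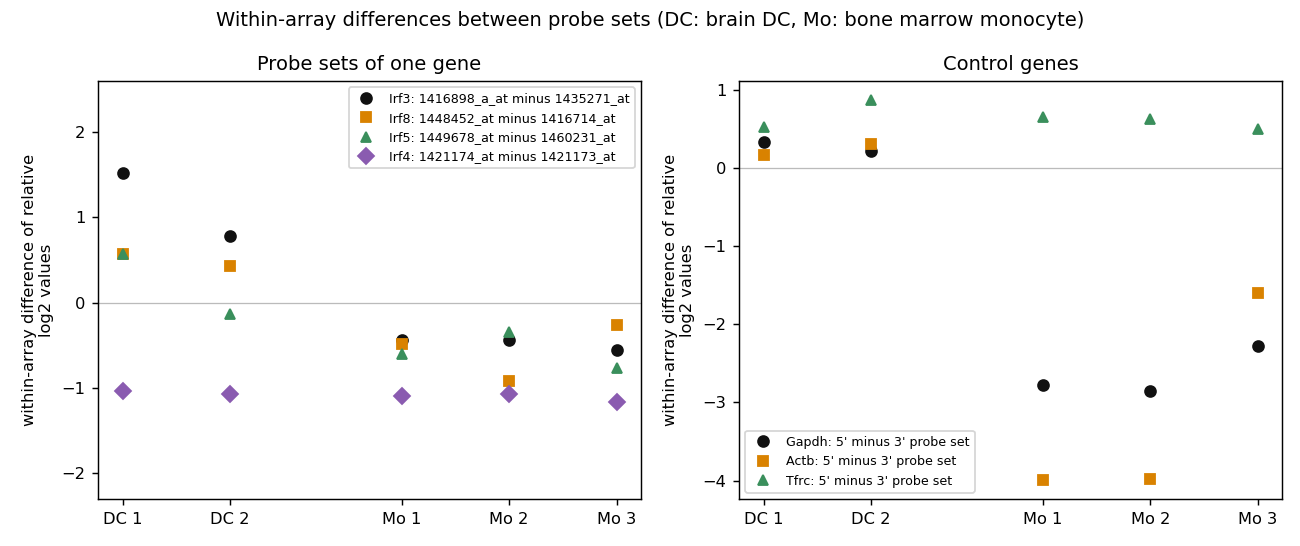
Within-array difference of relative log2 values (y axis) between 2 probe sets on each array (x axis: DC, brain DC; Mo, monocyte). Left, pairs of Irf8, Irf3, Irf5 and Irf4 probe sets; right, 5′ minus 3′ probe sets of Gapdh, Actb and Tfrc. Only shifts between the groups can be read. The Irf8, Irf3 and Irf5 pairs lie higher in brain DCs than in monocytes, and the Irf5 shift was not called. The Irf4 pair stays between -1.16 and -1.03, and Gapdh and Actb lie lower on the monocyte arrays.

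The genes around the family were counted in the fit on gene means, where 16.9% of 18193 genes were called higher, 16.9% lower and 33.8% in all, with a median difference of 0.09. Of the 8 members, Irf7, Irf8 and Irf5 were higher, 0 were lower and 5 were not called in this fit. The 12 lists around the family held 147 measured genes, and 59 of these were called higher, 25 lower, with 63 left uncalled. Sex, strain and age were shared, while tissue, cell type and tumour treatment separated the groups in the same way and cannot be told apart. The spike-in, hybridisation, Gapdh and Actb controls described above also separated the groups without overlap. A technical part in the calls of the members therefore cannot be told apart from these either, and was not tested.

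**Figure D4:**
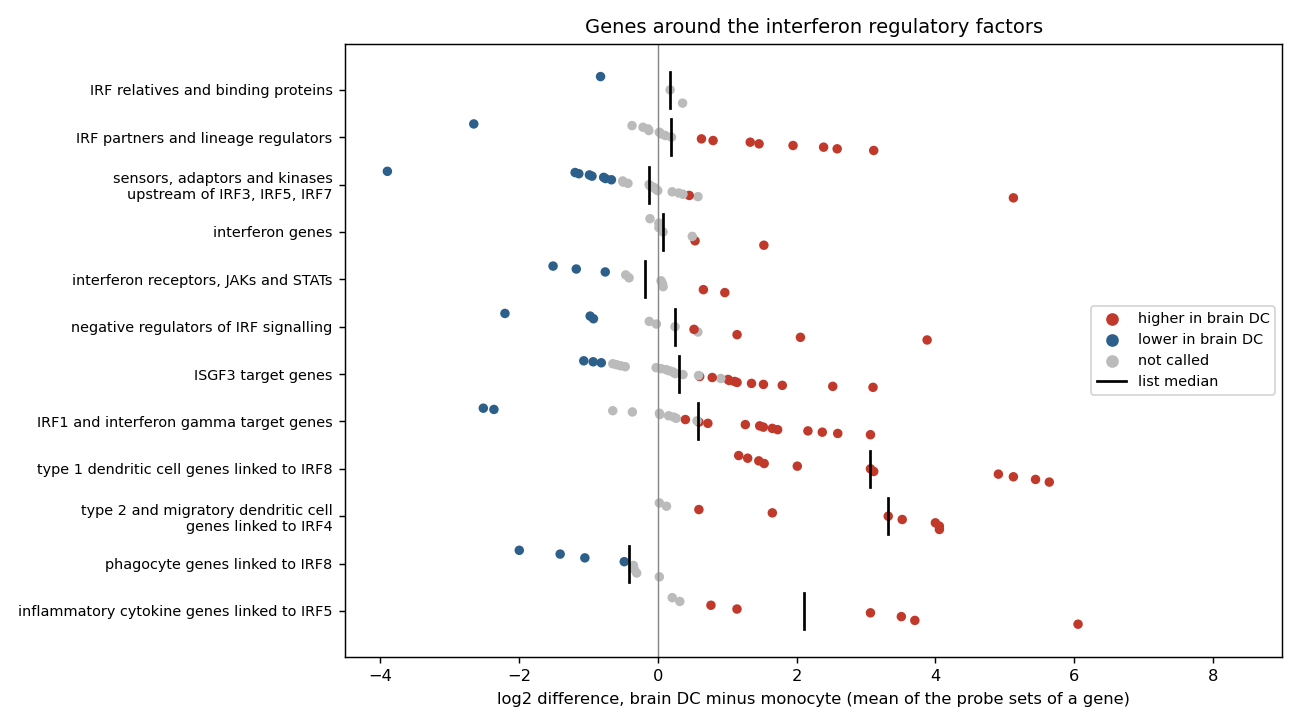
Log2 difference, brain DC minus monocyte, of each gene (x axis; mean of its probe sets) in 12 lists (y axis). Red points were called higher in brain DCs, blue points lower, grey points not called, and black lines are list medians. Dendritic cell genes linked to IRF8 and IRF4 lie to the right, with medians of 3.07 and 3.32, while the upstream sensors and kinases have a median of -0.12.

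Partners and lineage regulators of IRF4 and IRF8 were mostly higher or not called. The list had 17 measured genes, 8 of them higher, 1 lower and 8 uncalled, and its median was 0.20. Batf3, the AP-1 family partner of IRF8 in type 1 dendritic cells, stood at 1.34 and 1.25 in brain DCs, against -2.07, -1.87 and -1.52 in monocytes (3.11 ± 0.18, limma adjusted p = 2.65e-05). The ETS factor gene Spib was higher by 2.59 ± 0.17 and Id2, an inhibitor of E proteins in conventional dendritic cells, by 2.39 ± 0.14. Zeb2, a repressor in myeloid cells, was the lower gene, at -2.65 ± 0.14. The binding proteins of IRF2 differed from one another: Irf2bp2 was lower (-0.82 ± 0.15, limma adjusted p = 0.00522), with probe sets from -1.35 to 0.13. Irf2bp1 at 0.18 and Irf2bpl at 0.36 were not called, although 1 gene of this list was higher without brain DC replicate 1.

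The route that activates IRF3, IRF5 and IRF7 was more often lower than higher. Among 23 measured sensors, adaptors and kinases, calls were higher in 2 and lower in 8, the other 13 had none, and the median was -0.12. Ikbke, which encodes a kinase of IRF3 and IRF7, stood at -0.71 and 0.26 in brain DCs, against 4.02, 3.54 and 3.43 in monocytes. Both brain DC arrays were far below all monocyte arrays, and the difference was -3.89 ± 0.30 (limma adjusted p = 9.73e-05). Its relative Tbk1 was at -0.78 ± 0.13 (limma adjusted p = 0.00323) and was also called; that gene was picked after its value was seen. The adaptor gene of RNA sensing Mavs (-1.19 ± 0.23) and the TBK1 adaptor gene Azi2 (-1.14 ± 0.18) were lower. The higher genes were the double-stranded RNA receptor gene Tlr3 (5.12 ± 0.18) and the DNA receptor gene Tlr9 (0.45 ± 0.13). The count of 2 higher genes became 1 without brain DC replicate 2 or without any 1 of the monocyte arrays.

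Interferon genes and their receptors gave small counts. Of 7 measured interferon genes, Ifng, made by lymphoid cells, was higher (1.53 ± 0.30, limma adjusted p = 0.00713) at 2.0 and 0.88 in brain DCs, against -0.15, 0.12 and -0.24 in monocytes. Ifna1 was higher by 0.54 ± 0.15 and the other 5 were not called, among them Ifnb1 at 0.50. Leaving out brain DC array 1 or monocyte array 3 reduced these 2 calls to 1. The 10 measured receptor, JAK and STAT genes split into 2 higher, 3 lower and 5 uncalled, around a median of -0.18. The kinase gene Jak2 (0.97 ± 0.15) and the lambda receptor gene Ifnlr1 (0.66 ± 0.12) were higher. Jak1, the kinase shared by all interferon receptors, was lower (-1.51 ± 0.20), as were Ifnar2, a type I receptor chain (-1.17 ± 0.13, probe sets from -2.15 to -0.03), and Il10rb (-0.76 ± 0.13). Stat2, the partner of IRF9, stood at 0.07 ± 0.16 and was not called. The 11 measured negative regulators split into 4 higher, 3 lower and 4 uncalled. Socs3, an inhibitor of cytokine receptors, was higher by 3.88 ± 0.13 and Tnfaip3, which encodes A20, by 2.06 ± 0.12. Usp18, which removes ISG15 and dampens the type I receptor, was higher by 1.14 ± 0.37 (limma adjusted p = 0.0487), and Nlrx1, a mitochondrial regulator, was lower (-2.20 ± 0.16).

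Target genes of ISGF3 went both ways. Calls were higher for 11 of the 28 measured, lower for 3 and absent for 14, the median was 0.31, and without brain DC replicate 2 the 11 became 6. Bst2, which tethers virus particles (3.10 ± 0.16), Isg20, an exonuclease (2.52 ± 0.23), Ifi27l2a (1.80 ± 0.30) and Ifi35 (1.52 ± 0.17) had the largest increases. The 3 lower genes, picked after their values were seen, were Samhd1 (-1.06 ± 0.18), Eif2ak2 (-0.93 ± 0.18) and Parp14 (-0.81 ± 0.20). The mean over the list was 1.26 and 1.58 in brain DCs, against 1.29, 0.57 and 0.91 in monocytes, so the groups overlapped on that mean. Of the genes tied to IRF1 and interferon gamma, 12 of 22 were called higher and 2 lower, 8 had no call, and the median was 0.58. The interleukin 12 subunit gene Il12b (3.07 ± 0.30), the immunoproteasome gene Psmb9 (2.59 ± 0.13) and its activator gene Psme1 (2.37 ± 0.17) were higher. The GTPase genes Irgm2 (-2.51 ± 0.25) and Gbp3 (-2.36 ± 0.20) were the 2 lower genes.

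Genes linked to IRF8 in type 1 dendritic cells and to IRF8 in phagocytes differed in direction. The dendritic cell and phagocyte lists hold genes of the sorted cell types, so their directions are not independent of the sorts. They were chosen with earlier results of these data known, and any part of IRF8 or IRF4 was not tested. All 11 measured genes of the type 1 dendritic cell list were higher, with a median of 3.07. They were led by the chemokine receptor gene Xcr1 (5.64 ± 0.15), the integrin gene Itgae (5.44 ± 0.17), Tlr3 and the adhesion gene Cadm1 (4.91 ± 0.12). In the phagocyte list 0 of 8 were higher and 4 lower, and the median was -0.42. Cybb, the catalytic subunit of the phagocyte oxidase, was lower (-1.99 ± 0.13), as were Csf1r, which encodes the CD115 of the monocyte gate (-1.40 ± 0.18), Lyz2 (-1.05 ± 0.12) and Ncf4 (-0.48 ± 0.13). Of 9 genes linked to IRF4 in type 2 and migratory dendritic cells, 7 were higher and 2 not called, with the lectin genes Cd209a (4.06 ± 0.20) and Mgl2 (4.06 ± 0.28), the migration receptor gene Ccr7 (4.0 ± 0.18) and the chemokine gene Ccl22 (3.52 ± 0.23) at the top. Of 8 inflammatory cytokine genes linked to IRF5, 6 were higher and 2 not called, with Il1b at 6.06 ± 0.21, Il6 at 3.70 ± 0.15, Ccl5 at 3.51 ± 0.13 and Il12b at 3.07 ± 0.30. The lists around the family share genes, so their counts are not separate. Il12b is counted in the IRF5, IRF1 and type 1 dendritic cell lists, and Tlr3, Batf3, Ciita and Usp18 are among the others in more than 1 list.

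The 4 genes that encode gate proteins were Itgax, Itgam, Csf1r and Ptprc. Itgax, which encodes CD11c, was higher in brain DCs by 5.02 ± 0.21, while Itgam, which encodes CD11b, stood at -2.28 ± 0.42. Ptprc encodes CD45, for which brain DCs were gated high, and stood at 0.32 and 0.18 in brain DCs, against 0.93, 0.70 and 0.99 in monocytes. It was lower in brain DCs without overlap (-0.63 ± 0.14, limma adjusted p = 0.0124). The monocyte gate as given names no CD45, so this difference does not conflict with the sorts.

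Marker lists of other cells are read against the 33.8% of all genes called. All 8 conventional dendritic cell markers were higher in brain DCs, with a summed relative value of 16.7 to 17.9, against -13.7 to -9.92 in monocytes. Of 9 monocyte markers, 6 were lower, among them Fn1 (-5.94 ± 0.20), 1 was higher, Cd14 (2.31 ± 0.36), and 2 had no call. Their sums were 9.94 to 12.8 in brain DCs and 25.6 to 30.8 in monocytes. Itgax in the dendritic cell list, and Itgam and Csf1r in the monocyte list, encode gate proteins and are not independent of the sorts. Of 9 plasmacytoid dendritic cell markers, cells that carry much IRF7 and IRF8, 4 were higher (44.4%), among them Siglech (1.78 ± 0.13), and 0 lower. The sums were 2.20 to 3.34 in brain DCs, against -8.19 to -7.25 in monocytes. Pacsin1 (0.56), Cox6a2 (0.47), Ly6d (0.40), Klk1 (0.33) and Tcf4 (-0.13) of this list were not called. Of 9 microglia markers 8 were higher, led by Gpr34 (3.64 ± 0.21), and Cx3cr1 was lower (-2.56 ± 0.22). The sums were 12.3 to 13.4 in brain DCs and -3.39 to -2.02 in monocytes.

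Of 7 natural killer cell markers, 4 were higher (57.1%), led by Klrd1 (6.29 ± 0.30). Prf1 (0.27), Ncr1 (0.10) and Eomes (0.08) were not called. Klre1, among the higher genes, stood at 1.97 and 0.24 in brain DCs. The sums of this list were 5.90 to 9.18 in brain DCs and -5.64 to -4.33 in monocytes. The brain and choroid plexus list had 2 of 8 called (25%), below the share of all genes, but 1 of them was Ttr, the transthyretin gene of the choroid plexus. Ttr stood at 7.0 and 6.93 in brain DCs, against -0.28, -0.18 and -0.32 in monocytes, a difference of 7.22 ± 0.12 (limma adjusted p = 5.74e-07). The endothelial gene Cldn5 was the other, at 2.56 ± 0.24, and the list's sums were 9.80 to 11.3 in brain DCs and -0.94 to -0.65 in monocytes. B cell and plasma cell markers were called in 3 of 9 (33.3%), with Blnk and Ms4a1 higher and Prdm1 lower, near the share of all genes. The single lower call did not survive leaving out brain DC array 1, monocyte array 1 or monocyte array 2. T cell markers were called in 2 of 7 (28.6%), Cd8a and Cd3d, both higher. These 2 calls became 1 with quantile normalisation, with centring on the median, and when brain DC array 2 or any monocyte array was left out.

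The next lists are read against the 16.9% of all genes called higher and the 16.9% called lower. Immediate early and heat shock genes were higher in 13 of 14, with sums of 12.4 to 14.7 in brain DCs and -32.0 to -25.6 in monocytes. Fos, at -0.38, was the gene of that list without a call. Neutrophil and granule markers were lower in 6 of 11, led by Cd177 (-5.67 ± 0.15), and S100a9 was higher (1.41 ± 0.28). Proliferation genes were lower in 5 of 7, or 3 without either brain DC array. Since values are relative, a marker at 0 does not mean absence, and the part of any of these cells in the differences of the family was not tested.

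The genes whose pattern over the 5 arrays lay closest to the 3 most different members were found by the root mean square difference, after each probe set was set relative to its monocyte mean. Nearest to Irf7 were Plekho2 at 0.13, Tppp3 at 0.13 and Marcks at 0.15 on the log2 scale. Nearest to Irf8 probe set 1448452_at were Ece1 at 0.06, Nol7 at 0.06 and Cdkn2d at 0.07. Nearest to Irf3 probe set 1435271_at were Man1a at 0.05, Prkar1b at 0.05 and Maml1 at 0.05. Likeness over 5 arrays is a description of these arrays.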

How the data were processed

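Values for 2 brain DC and 3 bone marrow monocyte arrays were taken from the deposited table. The authors made these log2 values with RMA, per the submitters' processing notes. The log base and the centring on a probe set baseline were inferred from the values, whose array medians lay between -0.05 and 0.00. No RMA version, and no list of the arrays behind the normalisation, is stated in the labels or notes. Of 45101 probe sets 64 were controls, and 34945 had exactly 1 symbol in the platform annotation.

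The family members and all gene lists were chosen with earlier results of these data known. Group differences were fitted with limma 3.58.1 in R 4.3.3 (lmFit and eBayes without trend or covariate), on probe sets, on the mean of each gene's probe sets and on within-array differences between probe sets of one gene. Adjustment was by Benjamini-Hochberg over each whole table. The residual degrees of freedom were 3. The scripts were tested on simulated data with 200 changed among 45037 probe sets. There, 12.2% of log2 changes of 1 and 90.6% of changes of 2 were called. Many more probe sets were called in the data, so these shares need not hold for them. Named genes were all members, all measured IRF2 binding proteins, in each list the 4 called genes that differed most, and all called genes of a direction with 2 or fewer. Of marker lists only some of these are printed. Some other genes are marked as picked after their values were seen. The uncalled Stat2, Ifnb1 and uncalled markers, and the gate genes, were printed outside this rule without a mark. Alternatives were quantile normalisation, median centring, robust eBayes, the replicate number as a block, other gene summaries, 1-symbol probe sets only, and each array left out. No filter on dim probe sets could be set, since the values carry no level.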

Additional observations from a re-analysis of the deposited data

How the results depend on the processing

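The 3 higher and 1 lower member probe sets kept their calls and directions in all 10 alternatives. The number of lower member probe sets was 2 without brain DC replicate 1 and otherwise 1, so leaving out single arrays gave 1 to 2. At the level of genes, 0 members were lower, against 1 when the most variable probe set stood for its gene (Irf3, -1.18) and 0 to 1 over the arrays left out. The number of higher genes was 2 to 3 over those arrays, and the number of called pairs 2 to 4. Reversals were all in members without a call. Over the arrays left out, Irf2 ran from -0.85 to 0.56, Irf9 from -0.48 to 0.17 and Irf3 probe set 1438721_a_at from -0.81 to 0.11, each turned by leaving out 1 brain DC array, Irf2 also by leaving out monocyte replicate 3 (0.02). Irf2 stood at 0.0245 with the replicate block, and the Irf4 pair at 0.25 (1421173_at minus 1421174_at) with quantile normalisation. The cause was not tested. Genes of all lists together were 48 to 57 higher and 23 to 29 lower over the arrays left out, and 53 to 61 higher and 23 to 29 lower otherwise.

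The replicate numbers are shared by 2 pairs of arrays. Same-numbered arrays had deviations that correlated at 0.0344 and 0.095, and the labels state no shared animal or day, so the numbers were not taken as pairs. The replicate block left 3 higher and 1 lower member probe sets, and all probe sets gave 4660 higher and 6793 lower, against 5517 and 6959 without it. With the block 1 sensor or kinase gene, 1 interferon gene and 1 T cell marker were higher, against 2 of each without it, and 3 neutrophil markers, against 1. Without a brain DC array the remaining one is assumed to vary like the monocytes. The number of arrays limits precision, and signal over background is lost with the centring.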

Other observations

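The 3 monocyte arrays were not alike in interferon target genes. Of the 28 measured ISGF3 targets, 24 were highest in monocyte replicate 1 and 0 in monocyte replicate 2, while 22 were lowest in monocyte replicate 2 and 0 in monocyte replicate 1. Over all 18193 genes, 35.0% were highest in replicate 1 and 37.8% were lowest in replicate 2. Ifit1, an RNA-binding restriction factor, stood at 2.26, 0.44 and 1.87 in monocyte replicates 1, 2 and 3, and Usp18, which removes ISG15, at 1.64, 0.37 and 0.65. Irf7 and Irf9 had the same order, at 0.66, -0.07 and 0.47 for Irf7 and 0.69, 0.18 and 0.36 for Irf9. The order was not particular to them. It also held for Irf1, Irf3 probe sets 1416898_a_at, 1426111_x_at and 1438721_a_at, Irf4 probe set 1421174_at and Irf5 probe set 1460231_at. Irf8 probe set 1448452_at, at -1.01, -0.76 and -0.26, had another order. So did 1416714_at of Irf8, Irf2, 1435271_at of Irf3, 1421173_at of Irf4 and 1449678_at of Irf5. Ifit1, Usp18, Irf7, Irf9 and Irf8 were picked after their values were seen.

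Within brain DCs, the gap between the 2 arrays was larger than in most probe sets for some members and smaller for others. It exceeded that of 99.2% of probe sets for Irf2, 91.0% for Irf7 and 88.9% for Irf9, with replicate 2 higher in each. For Irf3 the share was 95.8% for 1438721_a_at (replicate 1 higher) and 88.7% for 1435271_at (replicate 2 higher). For 1416898_a_at and 1426111_x_at of Irf3 it was 20.3% and 7.1%. The Irf5 probe sets stood at 76.0% and 53.3%, and Irf1 at 49.2%. For Irf8 the share was 45.0% for 1416714_at and 16.8% for 1448452_at, and the Irf4 probe sets stood at 19.7% and 10.3%.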
